A study of Mus musculus with 119 samples.

Results

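The prefrontal cortex (PFC) of vehicle-treated mice is described here against 3 other brain regions of the same study, the dorsal medial striatum (DMS), the nucleus accumbens (NAc) and the ventral tegmental area (VTA). Its members are the libraries whose sample titles name the PFC and vehicle, 12 of 119 libraries in the series, with 6 from females (FTL_261 to FTL_266) and 6 from males (FTL_273 to FTL_278). They were compared with 12 vehicle libraries of the DMS, which stand in the same deposited table, and then with 12 of the NAc and 11 of the VTA, which stand in a second table. These make 47 libraries, and the amygdala was left out. In the study, adolescent mice were injected with vehicle or THC, their behavior was tested after a drug-free interval, and messenger RNA from punches of 5 regions was sequenced. All 4 groups used here are vehicle-treated mice labelled C57BL/6J and 11 weeks old, with 6 females in each group and 6 males in each, or 5 males for the VTA. They received ethanol, Tween and saline once a day into the peritoneum from postnatal day 28 to day 48 and had been tested from day 63 on, before tissue was taken. No allele or transgene is named for any group, and a punch holds every cell type of its place. The labels and the text of the study differ on the strain (C57BL/6J or C57BL/6NCrl), the age (11 or 12 weeks) and the name of the striatal punch (dorsolateral or dorsal medial), and DMS is used here.

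The PFC is a sheet of cortex whose long-range output is carried by glutamatergic pyramidal neurons in layers, with a minority of local GABA interneurons of several kinds. Pyramidal neurons arise from the pallium, the roof of the embryonic forebrain, under transcription factors such as Tbr1, Neurod6 and Fezf2, and load glutamate into vesicles with the transporter made by Slc17a7. The striatum, to which the DMS and NAc belong, is built mainly from GABA-releasing medium spiny neurons of the ventral forebrain, and the VTA is a midbrain center of dopaminergic neurons.

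The 3 genes that mark this group, Slc17a7, Tbr1 and 9130024F11Rik (a non-coding transcript), and Neurod6, a pallial transcription factor gene higher against all 3 regions, stand for the pallial side of the contrast. For this reason the 300 bases ending at the transcription start of each are printed here from RefSeq, build GRCm38.p6. The promoters lie at chr7:45163671-45163970 on the plus strand, chr2:61804203-61804502 on the plus strand, chr1:56971219-56971518 on the plus strand and chr6:55681214-55681513 on the minus strand. Capitals mark 3 textbook motifs of pallial regulators read on both strands. These are the E-box of Neurod proteins (CAGATG or CATCTG), the T-box half-site of Tbr1 (AGGTGT or ACACCT) and a homeodomain site (TAATTA).
Slc17a7: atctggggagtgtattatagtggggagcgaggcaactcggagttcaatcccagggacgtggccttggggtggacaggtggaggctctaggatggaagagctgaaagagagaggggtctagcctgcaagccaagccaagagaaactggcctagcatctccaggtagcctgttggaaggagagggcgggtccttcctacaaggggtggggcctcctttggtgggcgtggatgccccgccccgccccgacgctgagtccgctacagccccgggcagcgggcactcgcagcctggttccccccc
Tbr1: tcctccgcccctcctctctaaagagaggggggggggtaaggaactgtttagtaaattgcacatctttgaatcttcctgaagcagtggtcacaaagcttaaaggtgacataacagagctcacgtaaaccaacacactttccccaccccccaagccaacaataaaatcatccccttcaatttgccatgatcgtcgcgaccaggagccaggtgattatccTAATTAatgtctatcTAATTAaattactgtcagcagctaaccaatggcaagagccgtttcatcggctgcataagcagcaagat
9130024F11Rik: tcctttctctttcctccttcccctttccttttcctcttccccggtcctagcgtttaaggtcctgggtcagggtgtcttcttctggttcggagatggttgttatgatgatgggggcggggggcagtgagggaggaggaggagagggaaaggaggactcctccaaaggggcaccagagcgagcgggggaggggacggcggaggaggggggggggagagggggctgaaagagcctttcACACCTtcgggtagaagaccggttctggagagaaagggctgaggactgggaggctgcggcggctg
Neurod6: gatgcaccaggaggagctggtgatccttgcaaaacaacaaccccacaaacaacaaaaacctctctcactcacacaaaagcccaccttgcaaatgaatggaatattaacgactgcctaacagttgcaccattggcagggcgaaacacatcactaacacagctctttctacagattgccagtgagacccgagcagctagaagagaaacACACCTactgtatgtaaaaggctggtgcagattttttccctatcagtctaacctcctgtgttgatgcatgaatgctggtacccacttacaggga
The Slc17a7 promoter holds 0 of these motifs, the Tbr1 promoter 2 homeodomain sites, and the promoters of 9130024F11Rik and Neurod6 hold 1 T-box half-site each. Of 32851 promoters in the genome, 5635 (17.2%) hold the E-box, 4514 (13.7%) the T-box half-site and 1738 (5.29%) the homeodomain site, and 10476 (31.9%) hold any of them. Of 15 transcription factor genes of pallial neurons, 13 had a promoter here. Among these genes 5, 3 and 3 hold the E-box, the T-box half-site and the homeodomain site in any promoter. These are counts of genes, while the genome shares are of promoters. A match is a description, not a site or a cause.

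Levels below are TMM-normalized CPM from 1 normalization of the 47 libraries, given as the range over the libraries of a group with the median, and a log2 fold change is the PFC over the other region with its standard error, from edgeR with sex as a covariate. A gene was called at a Benjamini-Hochberg adjusted p under 0.05 and a log2 fold change of 0.4 or more in either direction. A stricter count asked for a 4-fold difference. Depth, as the sum of expected counts of a library, had a median of 23373000 in the PFC, with 20299010 to 25470245. In the DMS it ran from 17826631 to 24583805 with a median of 21656300, in the NAc from 12091765 to 37788972 with a median of 19990000, and in the VTA from 3090998 to 60022122 with a median of 18629600. Region and table cannot be told apart for the NAc and VTA, since only the DMS shares a table with the PFC. By the text of the study, all regions were punched from the brains of 1 group of 24 mice, so the vehicle libraries of the 4 regions come from the same 12 mice. No label names the mouse behind a library, so regions were compared as independent groups, and the 3 comparisons share the same 12 PFC libraries. In tissue punches, fewer cells of a type and less RNA per cell cannot be told apart.

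Mitochondrially encoded genes took 5.22 ± 0.182% of the counts of a PFC library (mean ± SD, n = 12), against 6.95 ± 0.639% in the DMS, 4.78 ± 0.216% in the NAc and 4.03 ± 0.536% in the VTA. Permutation tests of these differences gave p = 4e-05, 4e-05 and 2e-05, each with an adjusted p of 0.00012 over 12 tests of library measures. The 10 most abundant genes took 5.59 ± 0.186% in the PFC and 7.82 ± 0.882% in the DMS (p = 4e-05, adjusted p 0.00012), while p was 0.175 against the NAc and 0.111 against the VTA. PFC libraries were also deeper than DMS libraries (p = 0.0237, adjusted p 0.0474) and held a count in more genes, with means of 22549.9 and 22120.2 (p = 0.00994, adjusted p 0.0239). Within a sex, depth was not called (females p = 0.284, males p = 0.0498 and adjusted p 0.0996), and the difference in genes with a count was not called in males (p = 0.442). The part of these measures in the gene results was not tested.

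In all, 4 libraries were set apart by their distance from their group or by transcripts of another region, a choice made after the data had been seen. Some NAc and VTA libraries also held more Slc17a7 than the rest, as given below, and were not set apart. The male VTA library FTL_371, the shallowest with 3090998 counts, lay over 2-fold from the median of its sex and region at 298 of 11894 genes, against 75 in the next VTA library, FTL_358, which was not set apart. The text of the study says that 1 male VTA sample was removed as an outlier without naming it. It also reports that the VTA sample of a vehicle-treated male was left out for low RNA quality. All 11 deposited VTA vehicle libraries are kept here. In FTL_371 the levels of Th (270.3 CPM) and Slc6a3 (518 CPM) were the lowest of the VTA, where the others held 586 to 838 and 1056 to 1701. Its Foxb1 level was the highest (69.6 CPM, others 4.62 to 49.6). The female DMS library FTL_285 lay that far at 130 of 11649 genes and held cortical transcripts, with 204 CPM of Slc17a7 where the 11 other DMS libraries held 1.67 to 3.52. It also held 56.3 CPM of Ttr, a choroid plexus gene, against at most 0.635 in the others. The male DMS library FTL_301 lay that far at 82 genes, with the lowest sum of medium spiny neuron genes in the DMS (10729 CPM) and 38.0 CPM of Foxj1, a gene of ciliated ependymal cells (others 4.07 to 29.5). In the PFC the female library FTL_264 held striatal transcripts, with 21.2 CPM of Adora2a against 1.41 to 3.36 in the 11 others and 3.52 CPM of Six3 against 0 to 0.240, although no PFC library lay 2-fold off at more than 14 genes. The main results that rest on these libraries are given with and without them, and how the transcripts came into them was not tested.

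The label of the PFC matched its markers in all 12 libraries. Slc17a7, which makes the vesicular glutamate transporter of cortical pyramidal neurons, ran from 1785 to 2074 (median 1913) CPM in the PFC, against 1.67 to 204 (median 2.78) in the DMS, 0.779 to 86.2 (median 2.53) in the NAc and 0.877 to 71.6 (median 6.39) in the VTA. Every PFC library lay above all 35 others, and the log2 fold changes were 7.04 ± 0.84 against the DMS, 6.70 ± 0.63 against the NAc and 7.06 ± 0.66 against the VTA (adjusted p 7.80e-08, 1.55e-09 and 2.14e-09). The high values outside the PFC were those of FTL_285 in the DMS, of 5 of 12 NAc libraries with 23.1 to 86.2 CPM, led by FTL_324, and of 4 of 11 VTA libraries of 35.4 to 71.6 CPM led by FTL_361. Without FTL_285 the log2 fold change against the DMS was 9.49 ± 0.06.

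Tbr1, a T-box transcription factor of postmitotic pallial neurons, ran from 174 to 233 (median 212) CPM in the PFC, 0.136 to 21.1 (median 0.366) in the DMS, 0.899 to 9.31 (median 3.21) in the NAc and 0.0521 to 1.12 (median 0.34) in the VTA. No library of another region reached the PFC, and the next highest value after FTL_285 was 9.31 CPM in the NAc. Its log2 fold changes were 6.50 ± 0.50 against the DMS, 5.68 ± 0.22 against the NAc and 9.30 ± 0.16 against the VTA (adjusted p 5.23e-11, 1.96e-16 and 1.32e-24), and 9.11 ± 0.09 against the DMS without FTL_285. The transcript 9130024F11Rik ran from 35.5 to 44.5 (median 41.0) CPM in the PFC and from 0 to 3.99 (median 0.0713) in the DMS, 0 to 0.534 (median 0.106) in the NAc and 0 to 0.282 (median 0) in the VTA. It was at or near 0 in most libraries outside the PFC, with log2 fold changes of 6.41 ± 0.37 against the DMS, 8.32 ± 0.14 against the NAc and 9.44 ± 0.15 against the VTA (adjusted p 2.67e-13, 2.97e-27 and 3.38e-28), and 8.75 against the DMS without FTL_285. How reads of either strand were assigned at its locus rests on the strand setting of the counting, which is not stated. The 3 markers were chosen with results of these data known, so these values describe the label and are no independent test of it.

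**Figure D1:**
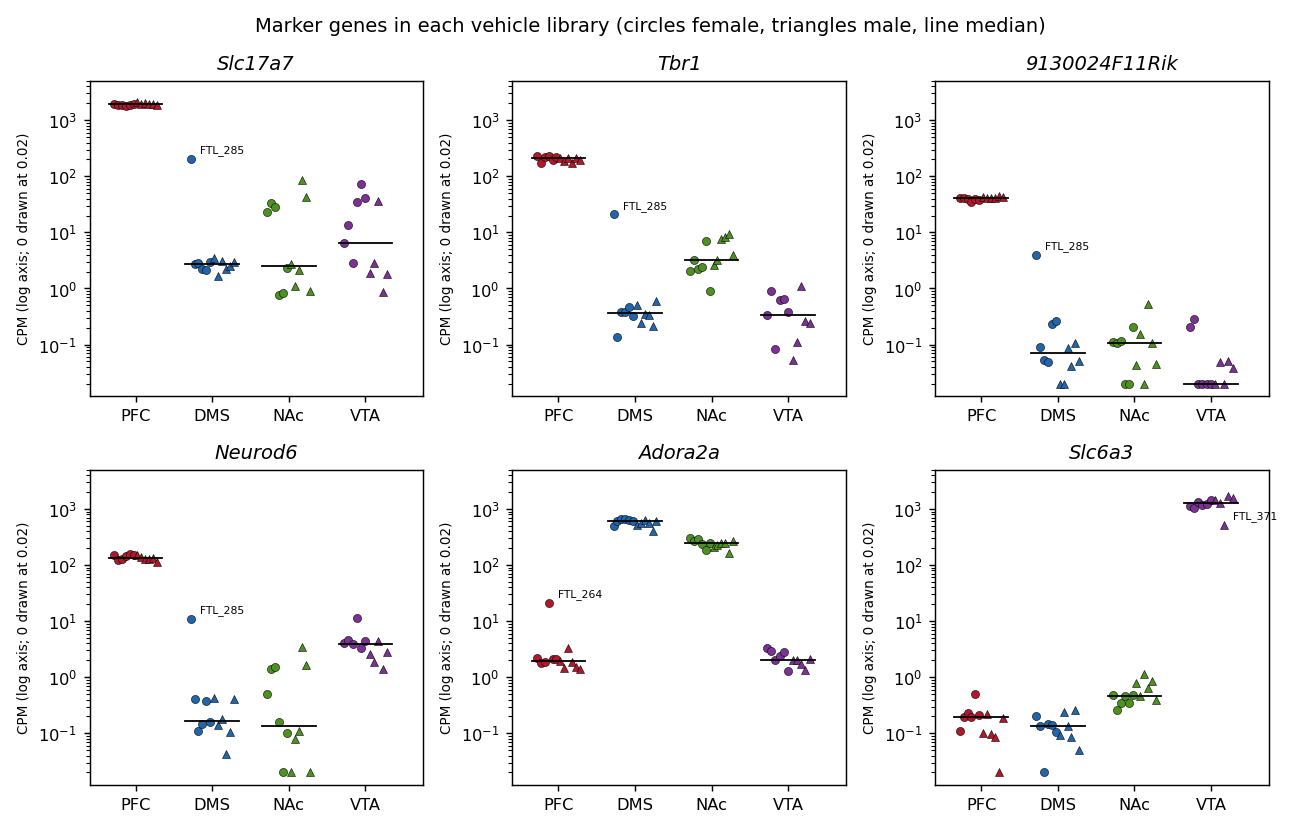
Levels of 6 marker genes in each of the 47 vehicle libraries by region, on a logarithmic CPM axis where a value of 0 is drawn at 0.02.

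The defining genes of the other regions were low but not all absent in the PFC. Of the striatal markers, Drd1 ran from 11.5 to 33.8 (median 17.3) CPM, Ppp1r1b from 72.4 to 204 (median 107) and Drd2 from 0.516 to 13.5 (median 1.19), each highest in FTL_264 and each below every DMS and NAc library. The dopaminergic markers Th, with 1.67 to 3.18 (median 2.39) CPM, and Slc6a3, with 0 to 0.496 (median 0.191), lay far under the VTA, where they held 270.3 to 838 (median 674) and 518 to 1701 (median 1284). Tmem212 of ependymal cells, the dopamine receptor gene Drd3 and the midbrain regulator Foxa2 were at 0 in all 12 PFC libraries.

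Against the DMS, the PFC stood out by the program of pallial glutamatergic neurons and by lower levels of the striatal one. Most transcription factors of pallial neurons and the vesicular glutamate transporter Slc17a7 were higher in every PFC library, while all 20 medium spiny neuron genes were lower. Most oligodendrocyte, vascular and microglial genes were lower as well. Of 15993 genes tested, 3674 were higher in the PFC (23.0%) and 4113 lower (25.7%), and 620 (3.88%) and 426 (2.66%) differed at least 4-fold. At 3846 genes (24.0%) every PFC library lay above every DMS library, and at 2677 (16.7%) below. Without FTL_264, FTL_285 and FTL_301 the counts were 3855 and 4086, and 722 and 431 at 4-fold. The median log2 fold change of all genes tested was -0.04 against the DMS, -0.03 against the NAc and -0.02 against the VTA, and stands beside the medians of the gene lists below.

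Among the genes with the largest fold over the DMS, at a mean of at least 5 CPM and with no overlap of libraries, were Slc17a7, Neurod6, Rspo2, Tbr1, Ovol2, Neurod2, Pappa2, 9130024F11Rik, Gm11549, Gm40518 and Slc30a3. Neurod6, a basic helix-loop-helix factor of pyramidal neurons, held 115, 136 and 157 CPM in the PFC (lowest, median and highest) and 0.0421, 0.168 and 11.0 in the DMS, a log2 fold change of 6.76 ± 0.43. Its relative Neurod2 held 114, 125 and 134 against 0.0842, 0.172 and 12.8 (6.48 ± 0.45). Slc30a3, which loads zinc into glutamatergic vesicles, held 70.0, 87.6 and 103 against 0.0529, 0.171 and 10.2 (6.28 ± 0.45). For each of these the highest DMS value was that of FTL_285, and the other 11 DMS libraries were near 0. Left without it, the log2 fold changes were 9.17, 9.15 and 9.05.

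Among the others, Rspo2 makes a secreted enhancer of Wnt signaling, Ovol2 a zinc finger factor and Pappa2 a protease of IGF-binding proteins. Their log2 fold changes were 6.51 ± 0.37, 6.49 ± 0.37 and 6.43 ± 0.39, at PFC levels of 33.1 to 53.7 (median 42.6), 6.49 to 9.47 (median 8.02) and 5.94 to 15.7 (median 11.4) CPM. Without FTL_285 they were 8.74, 9.10 and 8.40. The predicted genes Gm11549 (44.8 to 58.9 (median 52.7) CPM) and Gm40518 (7.48 to 14.5 (median 9.69) CPM) had 6.35 ± 0.41 and 6.34 ± 0.43, and 9.16 and 10.78 without that library. Few DMS counts of Gm40518, if any, then remained, so the size of its value is uncertain. All these genes lay at 0 or under 1 CPM in the median DMS library except Slc17a7.

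Among the genes furthest below the DMS were Six3os1, Lhx8, Isl1, E230025N22Rik, Sh3rf2, Gpx6, Six3, Adora2a, Gm39043, Syndig1l and Ptpn7. Lhx8 and Isl1, LIM homeodomain factors of the ventral forebrain, ran from 0 to 0.293 (median 0) and 0 to 0.44 (median 0.0225) CPM in the PFC and 6.84 to 11.8 (median 10.5) and 15.8 to 21.7 (median 19.7) in the DMS. Their log2 fold changes were -8.43 ± 0.28 and -8.03 ± 0.20. Six3, a homeodomain factor of striatal neurons, ran from 0 to 3.52 (median 0.0219) CPM against 50.1 to 66.0 (median 58.3) (-7.50 ± 0.35). Six3os1, on its other strand, had -8.54 ± 0.24. Adora2a, the adenosine receptor of the indirect pathway, ran from 1.41 to 21.2 (median 1.93) against 401 to 662 (median 603) (-7.43 ± 0.35).

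These genes were picked by a rule that required every PFC library to lie below every DMS library. The rest were E230025N22Rik (-7.94 ± 0.24), Sh3rf2 (-7.69 ± 0.28), Gpx6, a glutathione peroxidase (-7.61 ± 0.34), Gm39043 (-7.35 ± 0.27), Syndig1l (-7.11 ± 0.30) and the phosphatase gene Ptpn7 (-7.03 ± 0.23). FTL_264 held the highest PFC value of each of them. Without it the log2 fold changes were -10.33 for Six3os1, -10.14 for Six3, -9.01 for Sh3rf2, -8.82 for Gpx6 and -8.81 for Isl1. They were -8.57 for E230025N22Rik, -8.26 for Gm39043, -8.22 for Adora2a and -7.73 for Syndig1l. All PFC counts of Lhx8 lay in FTL_264, so no fold change without that library is given for it. Reads of Six3os1 and Six3 cannot be told apart by strand from these counts.

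Against the NAc, the second striatal region, most pallial transcription factors were again higher and all 20 medium spiny neuron genes lower, and Drd3 of the ventral striatum was among the lower genes. Of 16090 genes tested, 3368 were higher in the PFC (20.9%) and 3825 lower (23.8%), and 411 (2.55%) and 400 (2.49%) differed at least 4-fold. Libraries did not overlap, with the PFC above, at 3386 genes (21.0%) and with it below at 2744 (17.1%). Among the largest higher genes were Gm10635, 9130024F11Rik, Neurod6, Ovol2, Krt80, Gm11549 and Trbc2. Gm10635 ran from 5.78 to 12.6 (median 9.09) CPM in the PFC and 0 to 0.0782 (median 0) in the NAc, with 8.58 ± 0.25. Krt80, a keratin gene, ran from 8.57 to 28.2 (median 16.2) and 0 to 0.427 (median 0.0535) (7.29 ± 0.31), and Trbc2, a constant segment of the T cell receptor, from 17.8 to 30.8 (median 22.2) and 0.0514 to 0.374 (median 0.169) (6.93 ± 0.14). These 3 were also higher than in the DMS, by 6.00 ± 0.34, 5.79 ± 0.36 and 6.09 ± 0.36, or 7.24, 6.67 and 7.96 without FTL_285.

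Among the genes furthest below the NAc were Calcr, Drd3, Lhx8, Six3os1, Isl1, Six3 and Dlk1. Calcr, the calcitonin receptor gene, was at 0 in all 12 PFC libraries and ran from 4.75 to 16.7 (median 9.22) CPM in the NAc, so it was at least 913-fold lower, taking 3 counts over the pooled PFC as a floor. Drd3, a dopamine receptor gene of the ventral striatum, was likewise at 0 against 5.43 to 8.46 (median 7.30) CPM, at least 702-fold lower. The same floor gives at least 47.3-fold and 77.7-fold against the DMS. Dlk1, a Notch-like membrane protein, ran from 0.39 to 0.961 (median 0.677) CPM in the PFC and 107 to 191 (median 144) in the NAc, with -7.68 ± 0.14. Every PFC library lay below every library of the 3 other regions. For the others the log2 fold changes were -9.29 ± 0.52 for Lhx8, -9.06 ± 0.21 for Six3os1, -8.48 ± 0.21 for Isl1 and -7.72 ± 0.35 for Six3. Without FTL_264 they were -10.85 for Six3os1, -9.27 for Isl1 and -10.37 for Six3, while Lhx8 had no PFC count left. The NAc counts were then 3408 higher and 3880 lower, 420 and 444 at 4-fold.

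Against the VTA, the PFC differed at more genes, and the contrast was that of forebrain and midbrain. Of 15 pallial transcription factors, 13 stood on the higher side. All 15 midbrain dopaminergic genes and all 15 oligodendrocyte genes stood on the lower side. Of 16240 genes tested, 4152 were higher in the PFC (25.6%) and 4778 lower (29.4%), and 642 (3.95%) and 719 (4.43%) differed at least 4-fold. The PFC lay above every VTA library at 4102 genes (25.3%) and below at 3057 (18.8%). Without FTL_264 and FTL_371 the counts were 4192 and 4818, and 655 and 731 at 4-fold. The 4-fold counts were 391 and 400 with counts thinned to the shallowest library and 1542 and 1993 with no filter on low counts.

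Among the largest higher genes were 9130024F11Rik, Tbr1, Fezf2, Ovol2, Gm11549 and Gm39822. Fezf2, which directs subcortical output neurons, ran from 55.7 to 78.5 (median 66.6) CPM in the PFC and 0 to 0.497 (median 0.0516) in the VTA, with 9.27 ± 0.20. Gm39822 had 7.74 ± 0.25, or 8.43 without FTL_373. Gm11549 had 8.13 ± 0.15 and Ovol2 8.99 ± 0.24, or 9.83 without FTL_358. Few VTA counts of Ovol2, if any, then remained, so the size of this last value is uncertain. The rule that picked these genes required that PFC and VTA libraries did not overlap.

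Among the genes furthest below the VTA were En1, Slc6a3, C130021I20Rik, Irx2, Foxa1, Foxb1 and Slc18a2. En1, a homeodomain factor that maintains dopaminergic neurons, ran from 0 to 0.0487 (median 0) CPM in the PFC and 24.1 to 96.6 (median 72.2) in the VTA (-12.98 ± 0.30). Its PFC counts lay in FTL_262 alone, so no fold change without that library is given. Slc6a3, the dopamine transporter, had -12.81 ± 0.24 and Slc18a2, the vesicular monoamine transporter, -11.42 ± 0.22. Foxa1, a forkhead factor of the midbrain floor, had -11.82 ± 0.16, with PFC counts in FTL_261 alone, and C130021I20Rik had -12.25 ± 0.15. The homeodomain and forkhead genes Irx2 and Foxb1 were at 0 in all PFC libraries and ran from 11.4 to 28.9 (median 19.9) and 4.62 to 69.6 (median 11.8) CPM in the VTA, at least 1881-fold and 1187-fold lower. All of them were picked under the same rule, with every VTA library above every PFC library.

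Over the genes tested in all 3 comparisons, the lowest PFC library lay above the highest of the 35 others at 1680 of 15643 genes (10.7%), and the highest PFC library lay below the lowest of them at 607 (3.88%). Cux1 was one of the latter and Slc17a7, Tbr1 and 9130024F11Rik were among the former.

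The 15 transcription factors of pallial projection neurons were mostly higher in the PFC. There were 13 higher and 1 lower of 15 against the DMS, 12 and 1 of 15 against the NAc and 13 and 1 of 15 against the VTA (medians 4.33, 3.79 and 4.86). Among all genes tested, 23.0% were higher and 25.7% lower against the DMS, 20.9% and 23.8% against the NAc and 25.6% and 29.4% against the VTA. These shares stand beside the counts of every list below. Their summed level ran from 1772 to 2169 (median 1947) CPM in the PFC and from 362 to 548 (median 372) in the DMS, 309.7 to 384 (median 344) in the NAc and 209.8 to 267 (median 229.5) in the VTA. No library of another region reached the PFC, and the highest, FTL_285, reached 548 CPM. Mef2c, an activity-regulated factor and the most abundant of them, ran from 572 to 793 (median 687) CPM, with log2 fold changes of 2.42 ± 0.07 against the DMS, 2.95 ± 0.07 against the NAc and 5.79 ± 0.11 against the VTA. Cux1, a homeodomain factor of upper layers that other brain cells also make, was the one lower gene. It ran from 49.5 to 65.0 (median 56.2) CPM in the PFC against 81.2 to 94.1 (median 89.2), 91.2 to 104 (median 96.1) and 71.3 to 86.9 (median 77.8) (-0.67 ± 0.04, -0.77 ± 0.04 and -0.53 ± 0.05). Against the NAc and VTA, Neurod6 had 7.60 ± 0.28 and 5.22 ± 0.20, with VTA libraries of 1.39 to 11.2 (median 3.89) CPM.

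**Figure D2:**
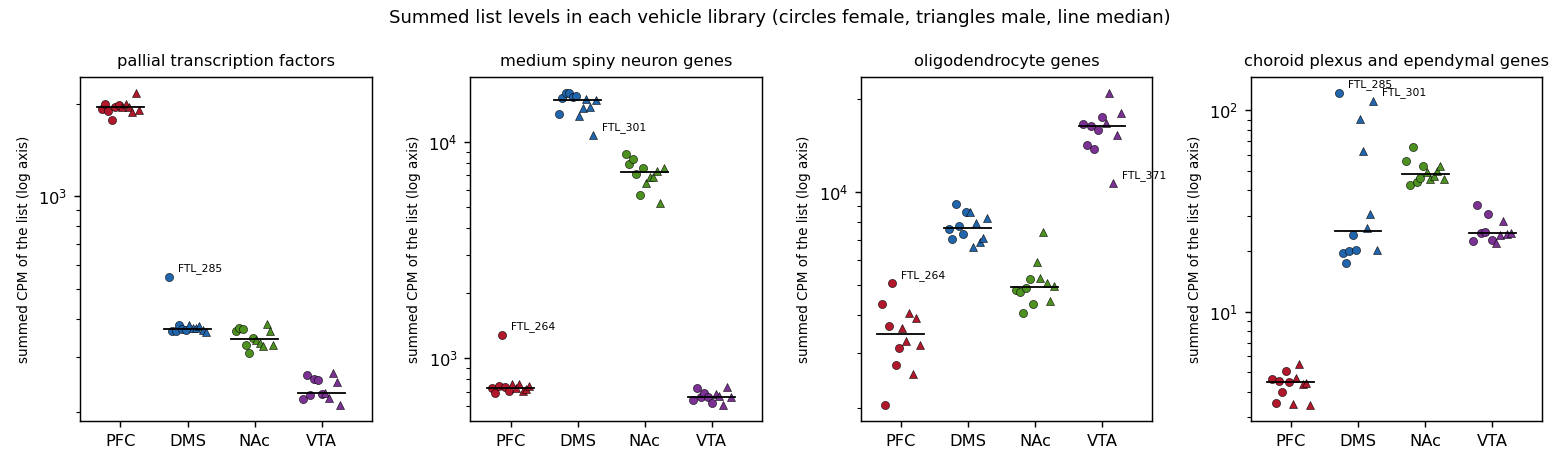
Summed levels of pallial transcription factor, medium spiny neuron, oligodendrocyte, and choroid plexus and ependymal genes in each vehicle library of the PFC, DMS, NAc and VTA.

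Genes known for single cortical layers did not all separate the PFC from the other regions. Several are known from striatal or midbrain neurons too, and which cells held them here was not tested. The 13 genes of layers 2 to 4 gave 7 higher and 5 lower of 13 against the DMS, 4 and 4 of 13 against the NAc and 6 and 4 of 13 against the VTA (medians 0.56, 0.30 and 0.00). Their sum overlapped every other region, with 428 to 751 (median 578) CPM in the PFC, 664 to 833 (median 765) in the DMS and 739 to 978 (median 804) in the NAc. Of the PFC libraries only FTL_262 reached the DMS or NAc in the sum of these genes, and the next held 649 CPM. Rasgrf2, an exchange factor for Ras and the most abundant of them, ran from 82.0 to 149 (median 120.2) CPM, with 2.55 ± 0.21, 0.62 ± 0.09 and -0.23 ± 0.10 against the DMS, NAc and VTA. Calb1, a calcium buffer of upper layers and of striatal neurons, ran from 65.0 to 122 (median 90.5) CPM against 284.7 to 419.9 (median 365) in the DMS (-1.98 ± 0.09). Its log2 fold change was -0.08 ± 0.10 against the NAc and 0.00 ± 0.14 against the VTA, and neither was called.

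The 12 layer 5 genes gave 8 higher and 3 lower of 12 against the DMS, 7 and 3 of 12 against the NAc and 10 and 0 of 12 against the VTA (medians 1.26, 0.86 and 1.08). Npr3, a clearance receptor of natriuretic peptides, ran from 20.2 to 24.5 (median 21.4) CPM and had 5.76 ± 0.36, 2.87 ± 0.23 and 2.08 ± 0.12 against the DMS, NAc and VTA, the first 7.49 without FTL_285. Slc17a8, a vesicular glutamate transporter of striatal cholinergic neurons as well, had -2.41 ± 0.10, -1.87 ± 0.10 and 1.85 ± 0.26, and Bcl11b, which both layer 5 output neurons and medium spiny neurons need, -1.86 ± 0.06, -1.15 ± 0.06 and 3.08 ± 0.09. Both were thus lower than in the striatum and higher than in the VTA. The 11 genes of layers 6 and 6b gave 5 higher and 4 lower of 11 against the DMS, 6 and 3 of 11 against the NAc and 8 and 2 of 11 against the VTA (medians 0.22, 1.26 and 1.86). Their sum of 408 to 644 (median 581) CPM lay below every DMS library (655 to 780.2 (median 721)), overlapped the NAc and lay above the VTA. Cplx3, a complexin of subplate cells, had 4.71 ± 0.30 and 4.63 ± 0.25, and a 7.45-fold higher level than in the VTA, at a PFC range of 5.36 to 21.9 (median 15.8) CPM, and Rprm 3.26 ± 0.13, 2.60 ± 0.09 and 1.86 ± 0.43 at 84.4 to 144 (median 118). Syt6, a synaptotagmin of layer 6 that striatal neurons make too, had -1.74 ± 0.08, -1.31 ± 0.09 and 1.39 ± 0.11.

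Transmitter genes showed no single direction. The 7 genes of vesicular transport and synthesis gave 3 higher and 4 lower of 7 against the DMS, 2 and 4 of 7 against the NAc and 3 and 3 of 7 against the VTA (medians -1.05, -1.28 and -0.12). Per kilobase of exon, the mean PFC level was 356 CPM for Slc17a7, 2.66 for Slc17a6, 0.912 for Slc17a8, 37.4 for Gad1 and 25.7 for Gad2, which make GABA, and 27.4 for Slc32a1, the vesicular GABA transporter. Slc17a6, the vesicular glutamate transporter of subcortical neurons, ran from 11.8 to 16.0 (median 14.4) CPM in the PFC and 127 to 344 (median 184) in the VTA (-3.82 ± 0.15), while 0.40 ± 0.28 against the NAc was not called (adjusted p 0.203). In the DMS it ran from 0 to 1.83 (median 0.0894) CPM, below every PFC library (5.27 ± 0.36, and 6.56 without the 3 libraries). Gad1 was lower than in the DMS (-1.05 ± 0.03) and NAc (-1.28 ± 0.04) and not called against the VTA (-0.12 ± 0.16). Gad2 and Slc32a1 were lower in all 3, with -1.48 ± 0.04, -2.48 ± 0.04 and -0.72 ± 0.14 and -2.03 ± 0.04, -2.28 ± 0.03 and -1.44 ± 0.10.

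The 17 genes of cortical GABA interneurons gave 8 higher and 3 lower of 17 against the DMS, 9 and 5 of 17 against the NAc and 10 and 7 of 17 against the VTA (medians 0.23, 0.52 and 1.96). Without the 3 libraries the median against the DMS was 0.92. Vip, the peptide of a bipolar class found in cortex, ran from 24.8 to 29.7 (median 27.1) CPM in the PFC and at most 3.54 elsewhere, with 5.53 ± 0.30, 4.16 ± 0.09 and 4.26 ± 0.15, the first 6.67 without FTL_285. The peptide genes Sst (0.12 ± 0.05) and Npy (-0.25 ± 0.05) were not called against the DMS. Cck, a peptide of interneurons and of pyramidal cells and the most abundant of the list, ran from 301 to 356 (median 336) CPM and had 5.11 ± 0.26, 5.95 ± 0.18 and 3.17 ± 0.07. Pvalb, of fast-spiking cells, had 2.85 ± 0.11, 2.94 ± 0.30 and -0.73 ± 0.11, so it was higher than in both striatal regions and lower than in the VTA. Reln, a matrix protein of layer 1 and of striatal cells, was lower than in the DMS (-1.37 ± 0.06), not called against the NAc (0.18 ± 0.09) and higher than in the VTA (0.77 ± 0.06).

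All 20 medium spiny neuron genes were lower than in both striatal regions, with 0 higher and 20 lower of 20 against the DMS, 0 and 20 of 20 against the NAc and 7 and 6 of 19 against the VTA (medians -4.39, -3.67 and 0.10). Their sum ran from 695 to 1288 (median 732) CPM in the PFC, with FTL_264 highest and the 11 others at 695 to 763, and from 10729 to 16865 (median 15679) in the DMS and 5210.2 to 8782 (median 7239) in the NAc. The VTA sum of 607 to 735 (median 665) CPM overlapped that of the PFC. Drd1 and Drd2, the dopamine receptors of the direct and indirect pathways, had -4.22 ± 0.13 and -6.94 ± 0.31 against the DMS and -3.28 ± 0.13 and -5.79 ± 0.32 against the NAc. Drd1 was higher than in the VTA (2.92 ± 0.16) and Drd2, which dopaminergic neurons carry too, lower (-5.65 ± 0.37). Without FTL_264, Drd2 had -7.75, -6.61 and -6.49. Isl1 had the lowest value of the list against the DMS, and Foxp1 the one nearest 0 (-1.69 ± 0.04, -0.61 ± 0.07 and 2.03 ± 0.06). Adcy5, an adenylyl cyclase and the most abundant in the PFC (166 to 251 (median 175) CPM), had -3.39 ± 0.06, -2.53 ± 0.07 and -0.27 ± 0.06.

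The 3 cholinergic genes gave 0 higher and 3 lower of 3 against the DMS, 0 and 3 of 3 against the NAc and 0 and 2 of 2 against the VTA (medians -5.75, -5.41 and -1.23). Their PFC sum was 1.04 to 3.96 (median 1.61) CPM, again highest in FTL_264. Chat, which makes acetylcholine, had -6.51 ± 0.15, -5.90 ± 0.20 and -1.49 ± 0.32, and Slc5a7, the choline transporter, -5.39 ± 0.13, -4.90 ± 0.17 and -0.97 ± 0.19. Of 15 midbrain dopaminergic genes, 2 higher and 4 lower of 7 against the DMS, 3 and 5 of 8 against the NAc and 0 and 15 of 15 against the VTA were called, and the medians were -1.12, -1.24 and -8.82. Their sum ran from 36.0 to 65.4 (median 40.1) CPM in the PFC and 2056 to 5590.1 (median 4577) in the VTA, with Aldh1a1 (15.7 to 24.7 (median 19.6) CPM in the PFC) the most abundant there and Foxa2 at 0. Chrnb3, a nicotinic receptor subunit, was higher than in the DMS and NAc (5.32 ± 0.34 and 4.39 ± 0.29) at only 1.14 to 2.61 (median 1.70) CPM and lower than in the VTA (-5.65 ± 0.15). Slc10a4, a vesicle protein of cholinergic and monoamine neurons, had -6.68 ± 0.17, -6.78 ± 0.20 and -9.80 ± 0.22, and Aldh1a1 -0.30 ± 0.12, 0.99 ± 0.18 and -5.43 ± 0.12.

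Genes of the olfactory bulb and the thalamus, which can enter a punch from nearby tissue, were low. Of 4 mitral and tufted cell genes 2 were tested, with 1 higher and 1 lower of 2 against the DMS, 0 and 1 of 2 against the NAc and 1 and 0 of 2 against the VTA (medians 0.12, -0.31 and 0.66). The PFC sum was 6.04 to 16.5 (median 10.3) CPM, overlapping that of every other region. Doc2g had 0.73 ± 0.19, -0.56 ± 0.15 and 0.29 ± 0.16 and Cdhr1, the most abundant, -0.49 ± 0.13, -0.07 ± 0.12 and 1.03 ± 0.16, all with overlapping libraries. The 5 thalamic genes gave 0 higher and 3 lower of 4 against the DMS, 0 and 4 of 5 against the NAc and 0 and 4 of 4 against the VTA (medians -0.56, -1.53 and -1.51). The PFC sum of 16.0 to 22.6 (median 18.7) CPM lay below every other library. Tcf7l2 had -0.22 ± 0.11, -1.53 ± 0.13 and -3.17 ± 0.22, Plekhg1, the most abundant, -0.55 ± 0.08, -0.44 ± 0.08 and -1.63 ± 0.07. Prkcd had -1.50 ± 0.34, -2.93 ± 0.34 and -1.39 ± 0.09, the first -0.84 without the 3 libraries, of which FTL_301 held 40.4 CPM.

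Most myelin genes were lower in the PFC than in the other regions. The 15 oligodendrocyte genes gave 0 higher and 14 lower of 15 against the DMS, 0 and 13 of 15 against the NAc and 0 and 15 of 15 against the VTA (medians -1.10, -0.60 and -2.10). Their sum ran from 2038 to 5053 (median 3459) CPM in the PFC, 6612 to 9103 (median 7652) in the DMS, 4048 to 7384 (median 4918) in the NAc and 10661 to 20894 (median 16321) in the VTA. Only the NAc overlapped the PFC. Mbp, the myelin basic protein and most abundant, ran from 759.7 to 1965 (median 1329.6) CPM in the PFC and had -1.18 ± 0.11, -0.52 ± 0.12 and -2.35 ± 0.13. Mobp had -1.52 ± 0.14, -0.51 ± 0.14 and -2.49 ± 0.16 and the lineage factor Olig2 -0.34 ± 0.06, -0.64 ± 0.07 and -1.67 ± 0.07. Against the NAc the calls of Mbp and Mobp were lost in females alone (-0.38, adjusted p 0.101, and -0.39, adjusted p 0.178). The 3 precursor genes gave 0 higher and 0 lower of 3 against the DMS, 0 and 3 of 3 against the NAc and 0 and 3 of 3 against the VTA (medians -0.15, -0.62 and -0.75). Pdgfra, the most abundant, had -0.15 ± 0.03, -0.53 ± 0.03 and -0.63 ± 0.04 and Cspg4 -0.04 ± 0.06, -0.77 ± 0.05 and -0.84 ± 0.06.

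Astrocyte genes went both ways. There were 5 higher and 1 lower of 15 against the DMS, 1 and 8 of 15 against the NAc and 4 and 11 of 15 against the VTA (medians 0.06, -0.41 and -0.99). The sum ran from 3499 to 4009 (median 3785) CPM in the PFC and overlapped the DMS and NAc but not the VTA (4751 to 6084 (median 5468)). In the DMS only FTL_285 overlapped the PFC (3564 CPM), and the next DMS library held 3227 CPM. Chrdl1, a secreted BMP antagonist of cortical astrocytes, ran from 15.5 to 24.5 (median 20.2) CPM in the PFC, above every other library (1.34 ± 0.10, 2.21 ± 0.13 and 3.52 ± 0.13). Slc1a2, the glutamate transporter and most abundant of them, had 0.40 ± 0.04, 0.33 ± 0.04 and 0.87 ± 0.04, where the first sat at the threshold and 11 alternative settings ended its call. Hes5, a Notch target, had -0.90 ± 0.08, -1.25 ± 0.09 and -0.52 ± 0.10, and the last was -0.28 in males alone and not called.

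Microglial genes gave 0 higher and 7 lower of 11 against the DMS, 0 and 0 of 11 against the NAc and 1 and 4 of 11 against the VTA (medians -0.49, -0.04 and -0.36). Their PFC sum was 343 to 392 (median 361) CPM. Tyrobp had -0.82 ± 0.08, -0.17 ± 0.08 and -0.69 ± 0.13 and P2ry12 -0.23 ± 0.05, 0.34 ± 0.03 and 0.44 ± 0.08. Endothelial and mural genes gave 0 higher and 9 lower of 11 against the DMS, 0 and 1 of 11 against the NAc and 0 and 10 of 11 against the VTA (medians -0.61, -0.14 and -0.89). Their sum of 208 to 244 (median 236) CPM lay below every DMS and VTA library. Rgs5 of pericytes, the most abundant, had -0.52 ± 0.05, 0.33 ± 0.04 and -0.30 ± 0.06, Ly6c1 -0.91 ± 0.06, -0.14 ± 0.06 and -0.88 ± 0.09 and Kdr -0.34 ± 0.07, -0.37 ± 0.07 and -0.89 ± 0.07. The part of glial and vascular content in the neuronal results was not tested.

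Genes of the brain's coverings and ventricles were low in the PFC. The 9 meningeal genes gave 1 higher and 3 lower of 9 against the DMS, 0 and 5 of 9 against the NAc and 0 and 9 of 9 against the VTA (medians -0.31, -0.68 and -2.87). Their sum was 17.7 to 31.6 (median 25.1) CPM in the PFC and 45.3 to 411 (median 223) in the VTA. Igf2, the most abundant, had -1.13 ± 0.13, -1.19 ± 0.15 and -3.47 ± 0.38 and the anion transporter Slc22a6 1.03 ± 0.21, 0.63 ± 0.30 and -2.61 ± 0.51. Of 7 choroid plexus and ependymal genes 3 were tested, with 0 higher and 3 lower of 3 against the DMS, 0 and 3 of 3 against the NAc and 0 and 3 of 3 against the VTA (medians -2.44, -2.99 and -2.88). The PFC sum of 3.43 to 5.48 (median 4.45) CPM lay below every other library. Foxj1, the most abundant in the PFC, had -2.44 ± 0.40, -1.96 ± 0.25 and -2.88 ± 0.09, Clic6 -5.35 ± 0.15, -6.05 ± 0.15 and -3.99 ± 0.26 and Kl -0.81 ± 0.18, -2.99 ± 0.10 and -0.91 ± 0.22. In the DMS the sum was 62.7 to 122 CPM in FTL_285, FTL_297, FTL_298 and FTL_301 and 17.5 to 30.5 in the 8 others, and Foxj1 had -1.98 against the DMS without FTL_264, FTL_285 and FTL_301. Tmem212, at 0 in the PFC, was at least 207-fold lower than in the DMS, where its highest values were those of these 4 libraries (3.58 to 10.1 CPM) and 5 others were at 0, and 80.4-fold lower than in the NAc.

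**Figure D3:**
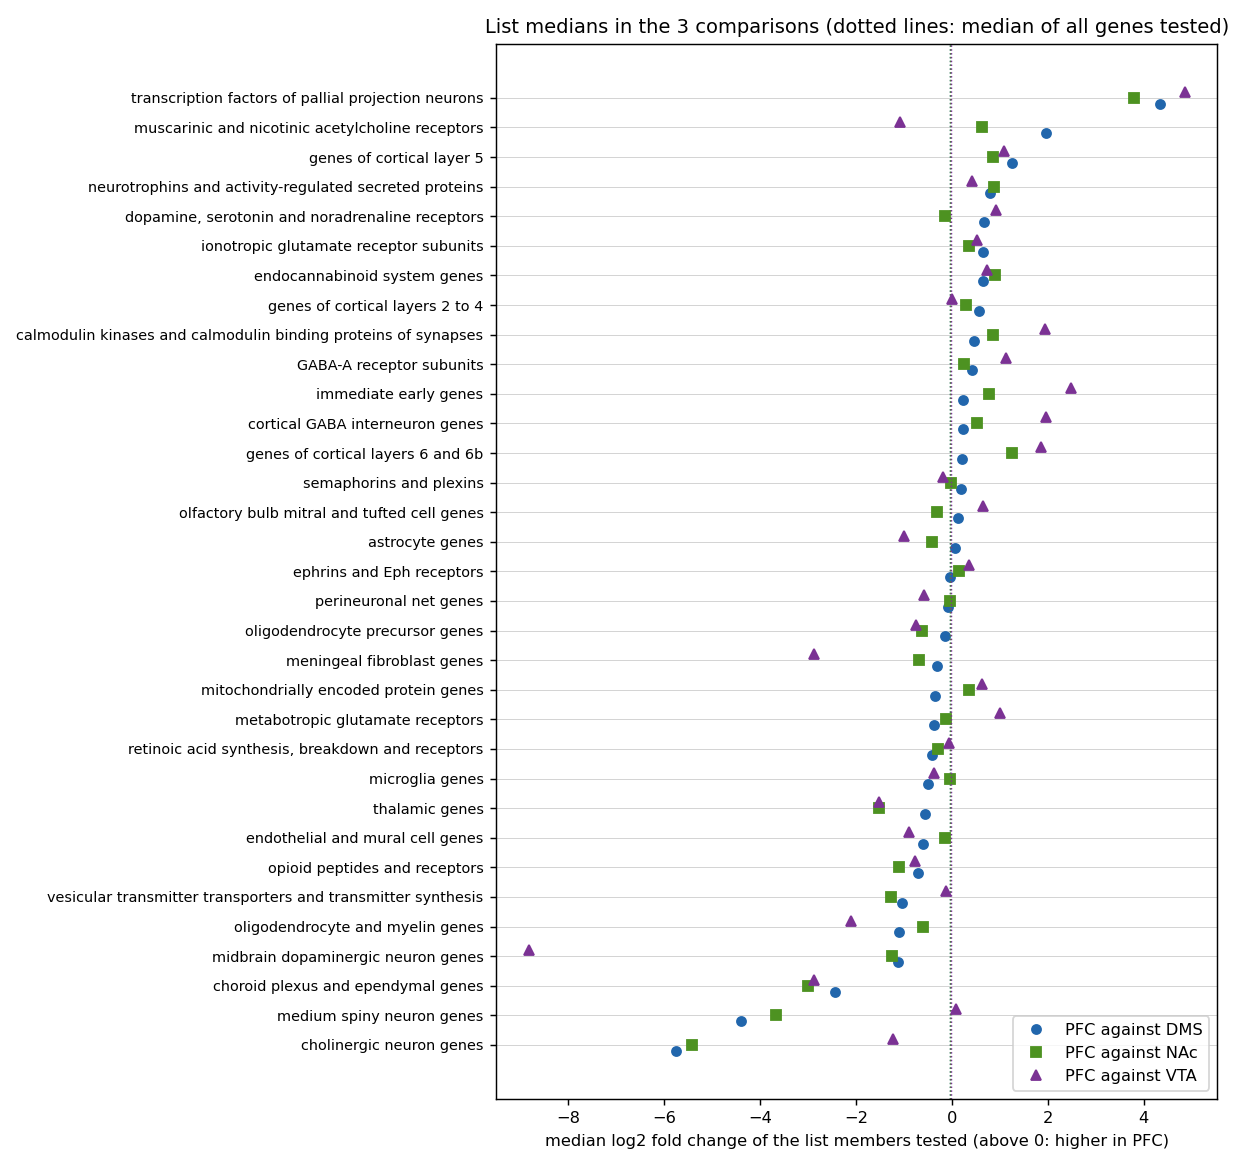
Median log2 fold change of the PFC over the DMS, NAc and VTA for 33 gene lists.

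Endocannabinoid genes, of interest to a study of THC although no library here was exposed to it, were mostly higher in the PFC. Of 14 genes 11 were tested, with 7 higher and 2 lower of 11 against the DMS, 9 and 0 of 11 against the NAc and 8 and 0 of 11 against the VTA (medians 0.65, 0.90 and 0.73). Over all genes tested, 20.9% to 25.6% were higher and 23.8% to 29.4% lower in these comparisons. Cnr2, Gpr55 and Trpv1 were too low to test. Their sum ran from 1342 to 1427 (median 1364) CPM, above every library of the other regions. Faah, which breaks down anandamide, ran from 91.6 to 111 (median 102) CPM in the PFC and 11.3 to 26.1 (median 13.2), 21.1 to 30.5 (median 26.8) and 35.4 to 47.2 (median 39.0) in the DMS, NAc and VTA (2.73 ± 0.10, 1.97 ± 0.05 and 1.27 ± 0.04). Mgll, which breaks down 2-arachidonoylglycerol and was the most abundant, had 0.78 ± 0.04, 0.43 ± 0.05 and 2.09 ± 0.05, and the call against the NAc was lost in females alone (0.32). Cnr1, the main cannabinoid receptor, ran from 187 to 231 (median 204) CPM, within the DMS range (-0.46 ± 0.11) and above all NAc and VTA libraries (1.58 ± 0.11 and 2.09 ± 0.04). Naaa, an acid amidase, had -0.63 ± 0.05, -0.27 ± 0.06 and 0.21 ± 0.07.

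The 26 receptors of dopamine, serotonin and noradrenaline split by receptor, not by transmitter. There were 12 higher and 9 lower of 22 against the DMS, 9 and 11 of 23 against the NAc and 14 and 6 of 21 against the VTA (medians 0.66, -0.13 and 0.93). Adra1d, an alpha-1 adrenergic receptor, ran from 26.8 to 39.7 (median 31.4) CPM in the PFC and at most 4.03 elsewhere, with 5.43 ± 0.29, 4.94 ± 0.12 and 3.65 ± 0.11, the first 6.41 without FTL_285. Htr2a, the serotonin receptor on which psychedelics act and the most abundant of them in the PFC, ran from 58.5 to 76.3 (median 66.4) CPM, above every other library (2.13 ± 0.06 and 2.32 ± 0.09 against the DMS and NAc, and 7.45-fold higher than in the VTA). Drd2 stood at the other end, as given above with the striatal genes, and Drd3 was at 0.

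**Figure D4:**
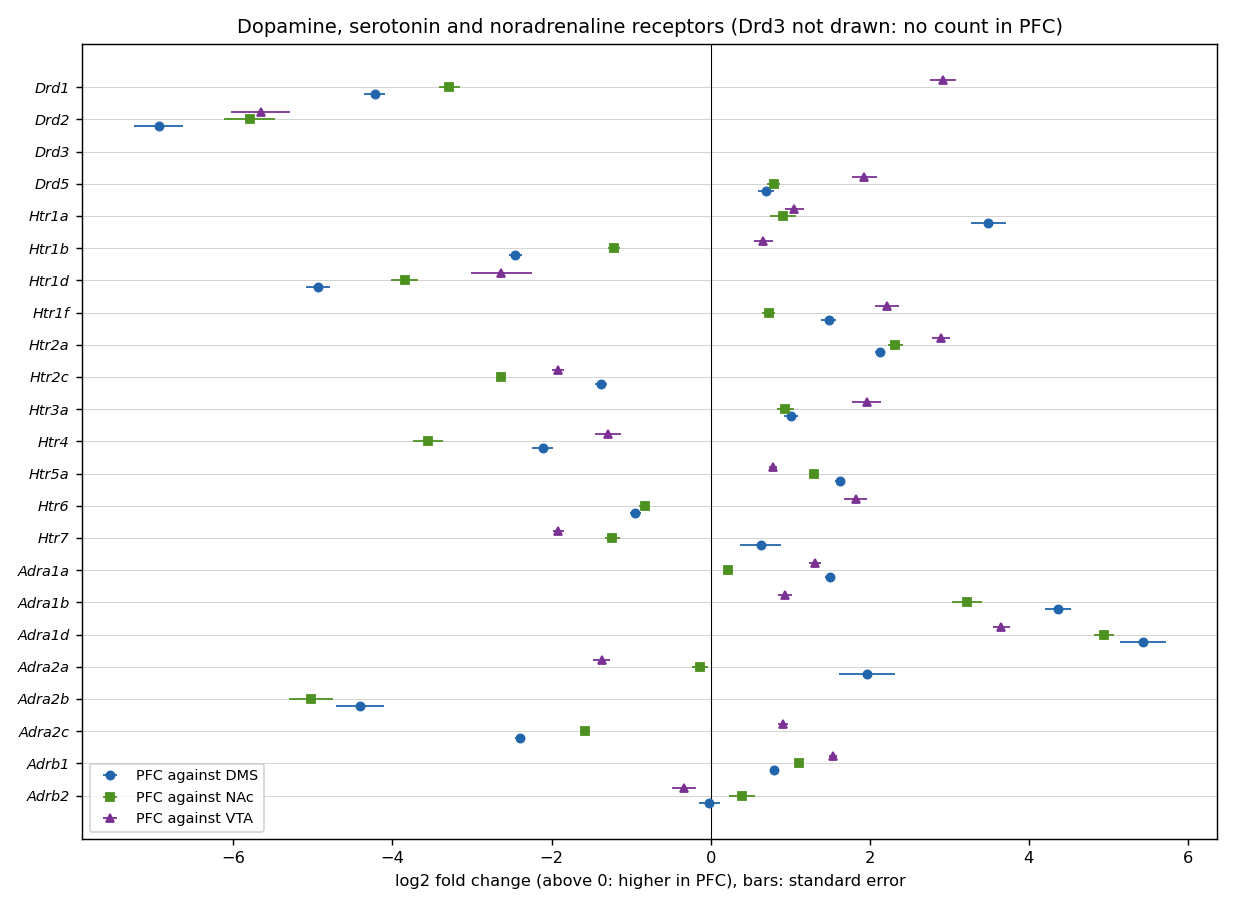
Log2 fold change with standard error of the PFC over the DMS, NAc and VTA for dopamine, serotonin and noradrenaline receptor genes, where Drd3 is not drawn because it had no count in the PFC.

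Of 14 acetylcholine receptor genes, 6 higher and 1 lower of 10 against the DMS, 7 and 2 of 11 against the NAc and 3 and 9 of 14 against the VTA were called (medians 1.96, 0.62 and -1.08). Chrm1, the muscarinic receptor of pyramidal neurons and the most abundant, ran from 182 to 211 (median 192) CPM and had 0.22 ± 0.04, 0.56 ± 0.05 and 4.92 ± 0.22, where the NAc call was lost with libraries of THC-treated mice (0.38). Chrm4, of medium spiny neurons, had -1.98 ± 0.08, -1.33 ± 0.06 and 3.07 ± 0.12. The 8 opioid genes gave 2 higher and 5 lower of 8 against the DMS, 1 and 6 of 8 against the NAc and 2 and 6 of 8 against the VTA (medians -0.71, -1.09 and -0.77). Penk, the enkephalin precursor, ran from 18.4 to 82.9 (median 25.2) CPM in the PFC against 1181 to 2136 (median 1708) in the DMS and had -5.88 ± 0.20, -4.84 ± 0.19 and -0.43 ± 0.18, and DESeq2 gave -0.40 for the last, with adjusted p 0.0374 after the filter on low counts and 0.0531 with no filter. Oprl1, the nociceptin receptor and most abundant in the PFC, had 0.97 ± 0.05, -0.01 ± 0.05 and -0.56 ± 0.04, and its ligand gene Pnoc 1.52 ± 0.47, -0.62 ± 0.14 and -1.22 ± 0.08. The value of Pnoc against the DMS was 2.78 without the 3 libraries, and its call was lost in males alone (1.17, adjusted p 0.104).

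Receptors of fast transmission were more often higher than lower, where 20.9% to 25.6% of all genes tested were higher and 23.8% to 29.4% lower. The 15 ionotropic glutamate receptor genes gave 9 higher and 1 lower of 15 against the DMS, 7 and 3 of 15 against the NAc and 9 and 1 of 15 against the VTA (medians 0.66, 0.35 and 0.52). Gria2, the most abundant at 897 to 1007 (median 966) CPM, had -0.03 ± 0.03, 0.25 ± 0.04 and 1.84 ± 0.04. Among kainate subunits Grik1 had 2.40 ± 0.12, 0.46 ± 0.14 and 0.09 ± 0.06 and Grik2 -1.33 ± 0.03, -1.07 ± 0.03 and 0.52 ± 0.06, so the 2 differed in direction against the striatum. Of 7 metabotropic receptors 2 higher and 3 lower of 7 against the DMS, 2 and 3 of 7 against the NAc and 5 and 1 of 7 against the VTA were called (medians -0.37, -0.11 and 1.01). Grm2, a presynaptic autoreceptor, had 5.23 ± 0.31, 3.65 ± 0.10 and 1.41 ± 0.39, the first 6.08 without FTL_285, and Grm4 and Grm5 had -1.80 ± 0.05, -1.46 ± 0.06 and -0.13 ± 0.12 and -1.12 ± 0.03, -0.64 ± 0.05 and 1.64 ± 0.05. The 13 GABA-A subunit genes gave 6 higher and 3 lower of 12 against the DMS, 5 and 3 of 12 against the NAc and 11 and 1 of 12 against the VTA (medians 0.42, 0.25 and 1.13). Gabra3 had 2.85 ± 0.10, 1.36 ± 0.05 and 1.36 ± 0.06. The extrasynaptic subunit gene Gabrd had -1.59 ± 0.05, -0.31 ± 0.08 and 5.88 ± 0.19.

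Of the activity-dependent genes, the 14 immediate early genes gave 6 higher and 3 lower of 14 against the DMS, 8 and 1 of 14 against the NAc and 14 and 0 of 14 against the VTA (medians 0.24, 0.79 and 2.48). Sums ran from 379 to 976 (median 519) CPM in the PFC, 384 to 760.3 (median 523) in the DMS, 303 to 598 (median 377) in the NAc and 69.9 to 134 (median 88.4) in the VTA. Egr1, a zinc finger factor and the most abundant, ran from 87.3 to 298 (median 122) CPM and had 0.11 ± 0.11, 0.84 ± 0.13 and 4.01 ± 0.19, and its NAc call was lost with libraries of THC-treated mice (0.37). Fos had 1.88 ± 0.30, 1.15 ± 0.28 and 1.25 ± 0.23 with overlap in all 3, and Egr2 -1.56 ± 0.24, 0.13 ± 0.26 and 4.12 ± 0.44. Against the NAc, Egr2 was called lower in males alone (-0.70) and with libraries of THC-treated mice (-0.76). Within the PFC all 6 females held more Egr1 (123 to 298 CPM) than any male (87.3 to 119.7 CPM). The difference was seen in the values and not tested. The summed level of the 14 genes overlapped between the sexes in the PFC, NAc and VTA. In the DMS the lowest female sum (538 CPM, FTL_287) lay above the highest male sum (508 CPM, FTL_298). The mice had gone through behavior tests, and the text of the study puts the taking of brains 2 days after the last of them.

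Among 11 neurotrophin and activity-regulated genes 6 higher and 1 lower of 10 against the DMS, 6 and 1 of 11 against the NAc and 6 and 2 of 11 against the VTA were called (medians 0.80, 0.88 and 0.41). Their sum ran from 2029 to 2461 (median 2254) CPM in the PFC, above every DMS and NAc library and overlapping the VTA (1800.0 to 2184 (median 1860.0)). Nrn1, neuritin, ran from 216 to 255 (median 231) CPM in the PFC and 0.43 to 27.0 (median 0.883) in the DMS and had 6.17 ± 0.48, 5.66 ± 0.14 and 1.59 ± 0.05, the first 8.04 without FTL_285. Ntrk2, the BDNF receptor and most abundant, had 0.65 ± 0.05, 0.24 ± 0.03 and -0.01 ± 0.03, and the secretogranin gene Scg2 -0.58 ± 0.06, -1.25 ± 0.04 and -1.80 ± 0.06. Of 8 calmodulin kinase genes and calmodulin partners, 4 higher and 2 lower of 8 against the DMS, 5 and 0 of 8 against the NAc and 7 and 1 of 8 against the VTA were called (medians 0.46, 0.85 and 1.94). Camk2a, a kinase of excitatory synapses and the most abundant, ran from 2610.1 to 3196 (median 2877) CPM in the PFC, above every other library (1.09 ± 0.05, 1.09 ± 0.05 and 4.30 ± 0.18). Camk2g had 2.01 ± 0.05, 1.39 ± 0.05 and 0.47 ± 0.04 and Camk4 -0.95 ± 0.06, 0.28 ± 0.07 and 2.62 ± 0.06.

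The 15 retinoic acid genes gave 2 higher and 7 lower of 13 against the DMS, 4 and 6 of 13 against the NAc and 2 and 4 of 12 against the VTA (medians -0.41, -0.30 and -0.06). Cyp26b1, which degrades retinoic acid, ran from 14.9 to 20.8 (median 16.4) CPM in the PFC and 0.337 to 2.24 (median 0.759) in the DMS, with 4.21 ± 0.17, 2.81 ± 0.12 and 0.19 ± 0.10. Crabp1, which binds it in the cytoplasm, had -7.00 ± 0.15 and -5.78 ± 0.20 and was not tested against the VTA. Rxrb, a receptor and the most abundant, had -0.41 ± 0.04, -0.07 ± 0.03 and 0.07 ± 0.04, and 10 alternative settings ended the first. The 9 perineuronal net genes gave 4 higher and 4 lower of 9 against the DMS, 3 and 4 of 9 against the NAc and 3 and 5 of 9 against the VTA (medians -0.09, -0.03 and -0.58). Hapln4, a link protein of nets around fast-spiking cells, ran from 91.9 to 121 (median 109) CPM and had 3.83 ± 0.17, 1.86 ± 0.11 and 0.29 ± 0.10. The oligodendrocyte link gene Hapln2 had -1.41 ± 0.10, -0.59 ± 0.10 and -2.92 ± 0.11 and Ncan, the most abundant, 0.48 ± 0.03 and 0.29 ± 0.03, with a 2.46-fold higher level than in the VTA.

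Of the guidance genes, the 29 semaphorins and plexins gave 13 higher and 6 lower of 29 against the DMS, 7 and 11 of 29 against the NAc and 8 and 12 of 29 against the VTA (medians 0.20, -0.02 and -0.18). Among all genes tested, 23.0% were higher and 25.7% lower against the DMS, 20.9% and 23.8% against the NAc and 25.6% and 29.4% against the VTA, and no list was tested against these shares. Sema5a had 2.46 ± 0.15, 0.52 ± 0.12 and 0.18 ± 0.10, Sema3f -1.65 ± 0.06, -1.79 ± 0.06 and -1.37 ± 0.07 and the most abundant, Plxna2, 0.55 ± 0.04, 0.28 ± 0.04 and 1.66 ± 0.05. The 20 ephrins and Eph receptors gave 8 higher and 5 lower of 19 against the DMS, 9 and 4 of 19 against the NAc and 9 and 6 of 19 against the VTA (medians -0.03, 0.16 and 0.36). Ephb6, the most abundant, ran from 251 to 315 (median 273) CPM in the PFC, above every other library (1.60 ± 0.07, 2.49 ± 0.06 and 2.23 ± 0.05). Ephb3 had 2.33 ± 0.09, 1.70 ± 0.05 and 1.28 ± 0.07 and Epha8 -2.68 ± 0.09, -2.93 ± 0.09 and -1.63 ± 0.12. The 13 mitochondrially encoded protein genes gave 0 higher and 6 lower of 13 against the DMS, 5 and 0 of 13 against the NAc and 10 and 0 of 13 against the VTA (medians -0.36, 0.35 and 0.62). mt-Co1, the most abundant, ran from 15934 to 17631 (median 16762) CPM in the PFC and had -0.17 ± 0.04, 0.38 ± 0.03 and 0.56 ± 0.05, and mt-Co2 -0.93 ± 0.06, -0.08 ± 0.04 and 0.11 ± 0.06, beside the shares of mitochondrial counts given above.

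The 12 PFC libraries also differ among themselves in genes of the cortical layers. The sum of layers 2 to 4 genes ran from 428 CPM (male FTL_273) to 751 (female FTL_262), that of layers 6 and 6b from 408 (FTL_262) to 644 (female FTL_261), and that of oligodendrocyte genes from 2038 (FTL_262) to 5053 (FTL_264). After the data had been seen, the 3 pairs of sums were correlated over the 12 libraries, with permutation p-values adjusted over the 3 pairs. The pairs were chosen from these same values, so the p-values describe the 12 libraries and are no independent support. Upper against deep layers gave Pearson r = -0.90 (p = 6e-05, adjusted 0.00018) and Spearman rho = -0.88 (p = 0.00026, adjusted 0.00039). It was -0.85 without FTL_273 and FTL_262, -0.97 in females and -0.80 in males, and r = -0.89 with rho = -0.86 without FTL_264.

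Deep layers against oligodendrocyte genes gave r = 0.87 (p = 0.00014, adjusted 0.00021) and rho = 0.88 (p = 0.00026, adjusted 0.00039), 0.76 without FTL_265 and FTL_262, 0.89 in females and 0.80 in males, and r = 0.89 with rho = 0.85 without FTL_264. Upper layers against oligodendrocyte genes gave r = -0.73 (p = 0.00718, adjusted 0.00718) and rho = -0.63 (p = 0.0316, adjusted 0.0316), -0.72 without FTL_273 and FTL_262, -0.91 in females and -0.32 in males, and r = -0.72 with rho = -0.57 without FTL_264. This last relation did not hold in every library, since FTL_277 was high both in upper layer genes (649 CPM) and in oligodendrocyte genes (3893 CPM). Each sum shares the normalization of its library, and how deep each punch reached was not recorded in the labels.

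**Figure D5:**
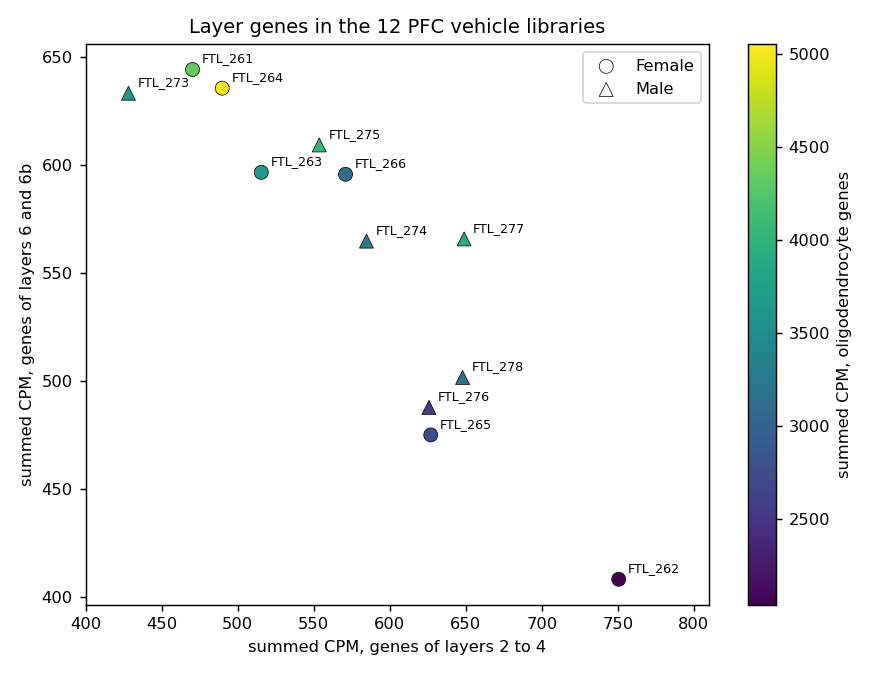
Summed level of layers 2 to 4 genes against that of layers 6 and 6b genes in the 12 PFC vehicle libraries, colored by the sum of oligodendrocyte genes.

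Most genes varied little between PFC libraries. Over 11610 genes of at least 5 CPM the median standard deviation of log2 CPM, with the means of the sexes removed, was 0.085, and the 95th percentile 0.21. The 10 most variable genes are repeats, pseudogenes or members of near-identical families. Reads of such genes may fit several places, which was not tested, so the values of these 10 are uncertain. They are Pgk1-rs7 (3.87), Rn7s1 (3.82), Rpl27-ps3 (3.57), Rn7s2 (3.46), Fam205a3 (3.36), Gm10359 (3.11), Gm5537 (2.84), Gm12671 (2.64), 2210418O10Rik (2.09) and Fam205a4 (1.93). Pgk1-rs7, for one, ran from 0 to 22.5 (median 3.41) CPM, with no count in 6 of the 12 libraries.

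How many regional differences were called as differing by sex depended on the libraries and the tool. The interaction of region and sex was called by edgeR at 5 genes against the DMS (0.0313%) and at 0 against the NAc (0.00%) and the VTA (0.00%). An unadjusted p under 0.05 was found at 2036, 1509 and 2003 genes, which are 12.7%, 9.38% and 12.3% of the genes tested. DESeq2 called 19, 8 and 31 on the same genes, and 18, 8 and 32 with no filter on low counts. Without FTL_371, the VTA library that stands apart, edgeR called 74 genes against the VTA, and 41 without FTL_264 as well. Against the DMS it called 20 without FTL_299 and 6 without FTL_264, FTL_285 and FTL_301. Ppp1r2, an inhibitor of protein phosphatase 1, had PFC means of 134 CPM in females and 139 in males against 212 and 302 in the DMS (interaction -0.45 ± 0.06, adjusted p 0.00111). Dhrs3, a retinaldehyde reductase, had 9.37 and 9.88 against 13.9 and 7.81 (0.91 ± 0.13, adjusted p 0.00111). In both, the PFC means of the sexes were close and the DMS means apart. The 3 others, Gm13446, Brinp1 and Cdkn1a, are given in the closing section.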

How the data were processed

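Messenger RNA from tissue punches was sequenced by the authors from poly(A)-selected, directional libraries. Reads were trimmed with cutadapt 2.9, aligned to mm10 with STAR 2.7.3a and counted per gene with RSEM 1.3.1. The authors deposited expected counts, not normalized, in 2 tables of 55291 gene symbols with 48 and 71 libraries. Of these values 4.75% and 5.00% are not whole, so they were rounded before testing. The text of the study points to a public ENCODE script for the alignment, which is not among the files used, and names no strand setting of RSEM, so values of genes overlapped by a gene of the other strand are uncertain, and 42 of the 143 genes that the naming rule picks are of this kind in GENCODE vM21.

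Regional differences were fitted with edgeR 4.0.16 in R 4.3.3, with its default filter on low counts, TMM normalization, a robust quasi-likelihood fit, and sex and region as terms, on the libraries of the 2 regions compared. The interaction of region and sex was tested in a further fit. A gene with no count in a group has no fitted fold change here, and a bound was taken from 3 counts over the pooled counts of that group. Values without a library were also fitted where few counts of the group, if any, remained, and their size is then uncertain. Log2 CPM used a prior count of 2. Library measures and relations between sums were tested with two-sided permutation tests of 100000 resamples, with Benjamini-Hochberg adjustment. The scripts were tested on simulated data. Python 3.11.15, pandas 2.3.3, scipy 1.17.1 and numpy 2.4.6 made the summaries. Promoters are the 300 bases before RefSeq transcription starts.

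Members and gene lists were chosen with earlier results of these data known. Genes named in the text follow a rule with 5 parts. They are the 3 markers, and the called genes with the largest folds, a mean of at least 5 CPM and no overlap of libraries, 12 per direction for the DMS and 8 for the NAc and VTA. They are also the members of each list with the highest fold, the lowest fold against the DMS and the highest PFC level, up to 5 interaction genes per comparison, and the 10 genes that vary most within the PFC. Markers of the other regions are given besides. Results of some genes that this rule picks are not reported here. Lists of other cell types were described by their counts, sums and most abundant genes.

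The alternatives were DESeq2 1.42.0 with no filter and on the filtered genes, its size factors in edgeR, no filter, all 47 libraries in 1 fit, each sex alone, THC libraries in place of vehicle, counts thinned to the shallowest library, leaving out each library in turn, and leaving out the libraries that stand apart. The other libraries of the series, from the amygdala and from THC-treated mice, are in no main comparison.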

Additional observations from a re-analysis of the deposited data

Results flagged for a closer look

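The region difference between the PFC and the DMS was not the same in females and males at 5 genes, by a test of the interaction. Values are male minus female log2 differences. Gm13446, which is overlapped by Dab2ip on the other strand, had 2.022 (adjusted p 0.000929). Its mean levels were 6.58 CPM in PFC females and 7.80 in PFC males, against 0.699 and 0.205 in the DMS. Ppp1r2 had -0.447 (adjusted p 0.00111) and Dhrs3 had 0.9105 (adjusted p 0.00111), with the levels given above.

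Brinp1, a gene of neuronal cell cycle control, had 0.4159 (adjusted p 0.03). Its means were 209 CPM in PFC females and 213 in PFC males, against 164 and 125 in the DMS. Cdkn1a, a cell cycle inhibitor, had -0.7482 (adjusted p 0.0384), with means of 20.9 and 16.1 in the PFC and 17.7 and 22.9 in the DMS. With libraries of THC-treated mice 0 genes were called, and why the sexes differ was not tested.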

How the results depend on the processing

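The counts of genes higher and lower in the PFC stayed within 1.5 times the values given above, except for 5743 genes lower than in the NAc with no filter on low counts. Counts at 4-fold rose with DESeq2 and no filter, to 1236 higher and 1010 lower against the DMS, 880 and 1010 against the NAc and 1174 and 1516 against the VTA. With edgeR and no filter, which tests more genes, they were 1534 and 1283, 1122 and 1330, and 1542 and 1993. DESeq2 on the filtered genes gave 589 and 418, 412 and 396, and 642 and 713, near the counts above. With no filter the counts rose under both tools, and less with DESeq2 than with edgeR. Thinned to the shallowest library, they were 391 and 400 against the VTA.

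Interaction counts depended on the processing. Against the DMS (5 genes) they were 19 with DESeq2 on the filtered genes and 18 with no filter, 3 with all libraries in 1 fit and 0 with libraries of THC-treated mice. Leaving out each library in turn gave 3 to 20, the most without FTL_299. Against the NAc (0 genes) DESeq2 gave 8 either way and leaving out a library 0 to 1. Against the VTA (0 genes) they were 31 with DESeq2 on the filtered genes and 32 with no filter, 9 with edgeR and no filter, 3 in 1 fit and 3 when thinned. Leaving out a library gave 0 to 74 there, the most without FTL_371, and 41 without FTL_264 and FTL_371. The cause was not tested.

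Of 13340 values of named genes under the alternatives, 92 lost their call, 33 gained one and 2 reversed. A further 73, called neither above nor under the alternative, changed sign. The 2 reversed were Egr2 against the NAc, not called above (0.13), with -0.6966 in males and -0.7645 with libraries of THC-treated mice. The cause was not tested.

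Depth differences between PFC and other libraries changed with sex. In counts per library they were 1216800 in females and 2378000 in males against the DMS, neither of them called (p = 0.284, and adjusted p 0.0996), and -2913000 and 5461700 against the NAc, called in males (adjusted p 0.00649). Against the VTA females had 5576900 (adjusted p 0.0371), reversed from -1626600 over all libraries, and males -10349400, not called. The cause was not tested. For genes with a count, males had 158.5 against the DMS, where the call ended (p = 0.442), 199.83 against the NAc and -93.867 against the VTA, where females had 789.33 (adjusted p 0.0371). Shares of counts kept their direction.

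No paired analysis was possible because the labels do not name the mouse of a library, although the regions come from the same 12 vehicle mice by the text of the study. The fits and permutations treat the regions as independent groups, and the effect of this was not tested. The settings without the libraries that stand apart, and DESeq2 on the filtered genes, were added after the data had been seen. The shallowest VTA library, FTL_371, held 3090998 counts. Without it 4253 genes were higher and 4795 lower against the VTA, where 4152 and 4778 were called with it. Its effect on calls among genes of low level was not tested.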
